A study of Saccharomyces pastorianus with 12 samples.

Results

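Acetaldehyde made by yeast during fermentation can be oxidised to acetate by aldehyde dehydrogenases, and acetate can be joined to coenzyme A to give acetyl-CoA. The transcripts of 6 genes of this route, namely ALD2, ALD3, ALD4, ALD5, ALD6 and ACS2, were followed through a production-scale lager fermentation. They were taken by gene symbol from the platform annotation, which gave each of them 1 probe, out of 5490 named genes and 6084 probes in all. The samples were total RNA of lager brewing yeast, Saccharomyces pastorianus (synonym S. carlsbergensis), at 0, 1, 24, 48, 72, 96, 120, 144, 168, 192, 240 and 264 h, with 1 array at each time. The labels name no strain, wort, temperature or vessel, and do not say whether the 12 samples came from the same vessel. This yeast is a hybrid with an S. cerevisiae parent, the probes carry S. cerevisiae gene names, and the gene copies of the other parent were not told apart.

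In S. cerevisiae, pyruvate decarboxylase turns pyruvate into acetaldehyde, most of which alcohol dehydrogenase reduces to ethanol during fermentation. The rest can go through cytosolic aldehyde dehydrogenase and acetyl-CoA synthetase, a route known as the pyruvate dehydrogenase bypass, which supplies cytosolic acetyl-CoA for sterols and fatty acids. Acetate that leaves the cell is the main volatile acid of beer, and acetyl-CoA also gives the acetyl group of acetate esters.

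Levels are given as log2 units above or below the array's median gene, so they can be compared between times for a gene and not between genes. In a bulk sample, fewer cells with a transcript and less of it per cell cannot be told apart. The deposited intensities themselves were on no common scale, with array medians from 762 at 168 h to 10142 at 96 h. Arrays also differed in spread, with an SD across genes from 0.67 log2 units at 240 h to 1.56 at 1 h, and the 240 h array had the lowest median Spearman correlation with the others, 0.252. Quantile-normalized levels, which give every array the same distribution, are therefore quoted beside many of the values. None of the 6 probes lay below the 5th percentile of its array at any time, and no background signal came with the values. For tests, arrays were pooled by their labelled hours into windows of 0 and 1 h (n = 2), 24 to 72 h (n = 3), 96 to 144 h (n = 3) and 168 to 264 h (n = 4). Because no time was repeated, a window's SD mixes measurement error with changes from one time to the next.

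ACS2, the acetyl-CoA synthetase of the cytosol and nucleus that yeast needs for growth on glucose, had the widest swing of the 6 genes. Its level was 1.31 at 0 h, 2.74 at 1 h, 4.50 at 24 h, 3.98 at 48 h and 3.81 at 72 h. It was 3.17 at 96 h, 3.75 at 120 h and 1.72 at 144 h, and then 2.07, 0.91, 0.12 and 1.29 at 168, 192, 240 and 264 h. The 5 arrays from 24 to 120 h all stood above the other 7. The deposited intensity of its probe was 5112 on the first array, 199326 on the 24 h array and 1820 on the 240 h array, where the array medians were 2066, 8797.5 and 1672. The largest single step was the one from 120 to 144 h, -2.03 log2 units median-centred and -1.84 after quantile normalization. The range over the 12 arrays, 4.38 log2 units or 20.8-fold, exceeded that of 95.9% of genes, against a median range of 2.09.

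The window mean of ACS2 went from 2.02 ± 1.02 (SD, n = 2) at 0 and 1 h to 4.09 ± 0.36 (n = 3) at 24 to 72 h and 1.10 ± 0.81 (n = 4) at 168 to 264 h. The first difference was 2.07 log2 units (SE 0.66, 95% interval 0.66 to 3.48), with no overlap between the arrays, and did not pass (limma adjusted p = 1.00). Leaving out the 0 h array gave 1.35, and leaving out the 1 h array 2.79. The second was -3.00 (SE 0.56, 95% interval -4.18 to -1.82), or 7.98-fold lower, again with no overlap, and lay just outside the threshold of 0.05 (limma adjusted p = 0.0528). After quantile normalization it was -2.39 and passed (adjusted p = 0.0365). The estimate stayed at -3.00 without the 0 h or the 1 h array, but the shared spread no longer held the difference between those arrays, and it then passed (adjusted p = 0.00893). With single arrays left out, its adjusted p ran from 0.00796 without 168 h to 0.483 without 24 h.

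ALD6, the main cytosolic aldehyde dehydrogenase on glucose, uses NADP and so yields NADPH along with acetate. Its level was 0.80 at 0 h, 3.05 at 1 h, 2.30 at 24 h, 2.24 at 48 h and 1.86 at 72 h. It was 1.08, 1.86 and 0.74 at 96, 120 and 144 h, and 0.82, 0.02, 0.35 and 0.23 at 168, 192, 240 and 264 h. Every array from 168 h on was below every array from 24 to 72 h. The windows of 24 to 72 h and 168 to 264 h stood at 2.13 ± 0.24 (n = 3) and 0.36 ± 0.34 (n = 4). Their difference was -1.77 (SE 0.49, 95% interval -2.82 to -0.73), or 3.42-fold lower, and did not pass (limma adjusted p = 0.143). It passed without the 0 h or the 1 h array, with the same estimate (adjusted p = 0.0158), and was -1.49 after quantile normalization (adjusted p = 0.0749). The difference of 24 to 72 h from the early window, 0.21, rested on which early array was kept: leaving out 0 h gave -0.91 and leaving out 1 h gave 1.34. After quantile normalization it was 0.39, and the highest level of ALD6 was then at 72 h (2.16, against 1.90 at 1 h).

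**Figure D1:**
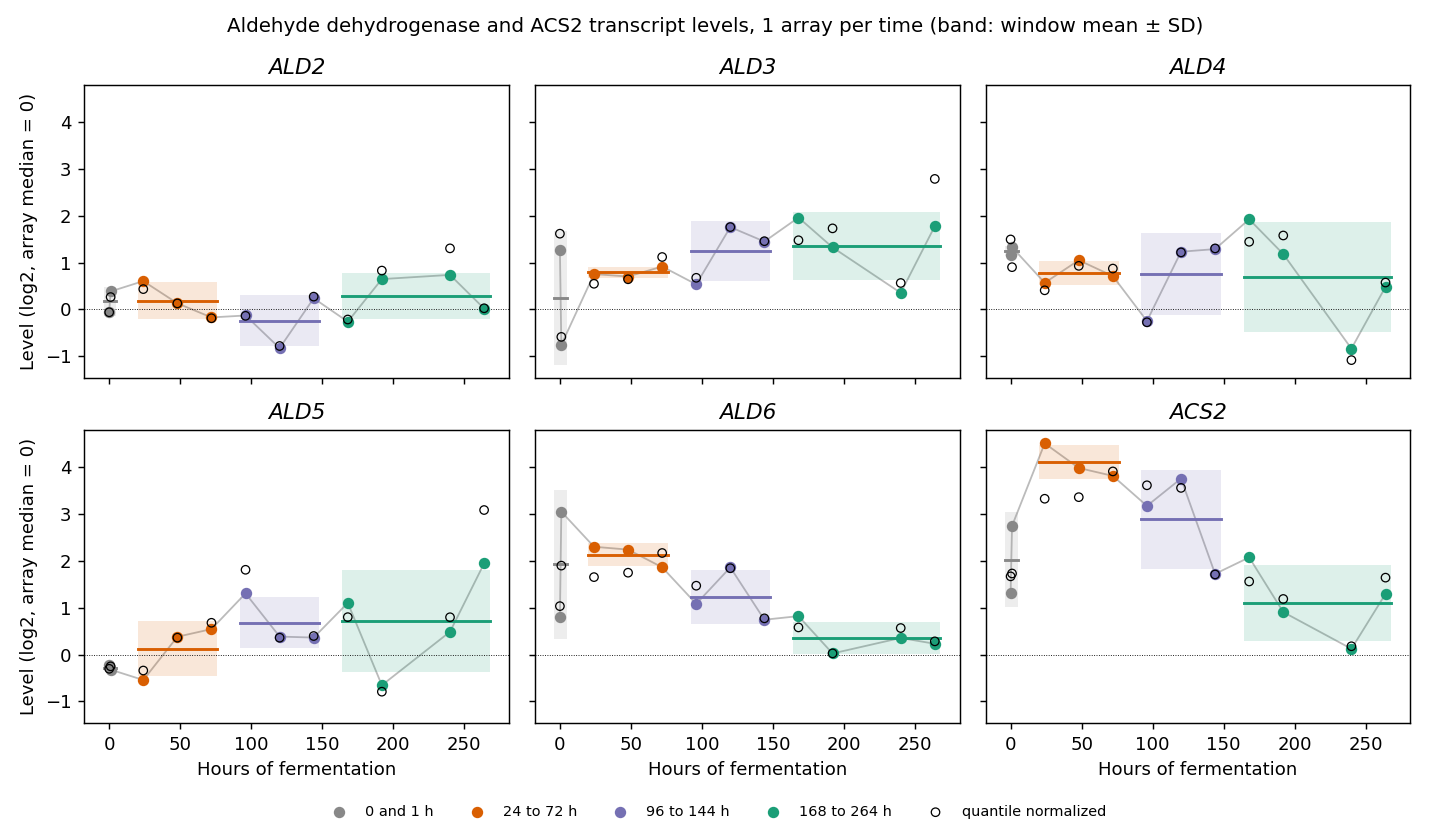
Levels of the 6 genes (y axis, log2, array median at 0) at the 12 sampling times (x axis, hours). Filled points are median-centred values coloured by window, open points are quantile-normalized values, and lines with bands are window means ± SD. ACS2 stands between 3.17 and 4.50 from 24 to 120 h and at or below 2.07 from 144 h, and the median-centred ALD6 level is highest at 1 h, at 3.05, while its quantile-normalized level is highest at 72 h.

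ALD4 and ALD5 encode the mitochondrial enzymes. ALD4, the major one, is repressed by glucose and serves growth on ethanol in S. cerevisiae, and ALD5 is a minor form. ALD4 stood at 1.17 and 1.33 at 0 and 1 h, 0.57, 1.05 and 0.71 at 24, 48 and 72 h, and -0.25, 1.23 and 1.29 at 96, 120 and 144 h. It was highest at 168 h (1.92), and then 1.18 at 192 h, -0.84 at 240 h and 0.48 at 264 h. The arrays at 96 and 240 h were its 2 low points, both below the median gene. Its window means were 1.25 ± 0.11, 0.78 ± 0.25, 0.76 ± 0.87 and 0.69 ± 1.17 in order of time (SD, n = 2, 3, 3 and 4), so the means moved little while the spread within the later windows was wide. All 3 arrays of 24 to 72 h were below both early arrays, by a mean of -0.47 (limma adjusted p = 1.00). After quantile normalization they overlapped, with 0.93 at 48 h against 0.90 at 1 h.

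ALD5 ran otherwise. It stood at -0.23 and -0.32 at 0 and 1 h, -0.54, 0.38 and 0.54 at 24, 48 and 72 h, and 1.30, 0.38 and 0.36 at 96, 120 and 144 h. From 168 h on it was 1.10, -0.65, 0.49 and 1.94, so neighbouring late arrays lay up to 1.75 log2 units apart and the highest value was that of the last sample. Its window means were -0.28 ± 0.06, 0.13 ± 0.59, 0.68 ± 0.54 and 0.72 ± 1.09. The late window differed from 24 to 72 h by 0.59 (95% interval -0.54 to 1.73, limma adjusted p = 0.627), and by 0.18 without the 264 h array, 0.26 without 24 h and 1.05 without 192 h. At 96 and 240 h, where ALD4 was lowest, ALD5 was above the median gene.

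ALD2 and ALD3 are neighbouring, closely related genes for cytosolic enzymes that are known to respond to stress and to make beta-alanine, a precursor of pantothenate and coenzyme A. The files do not say how far each probe tells the pair apart. ALD3 stood at 1.26 at 0 h and -0.76 at 1 h, then at 0.75, 0.70 and 0.91 at 24, 48 and 72 h. It was 0.53, 1.75 and 1.45 at 96, 120 and 144 h, and 1.96, 1.32, 0.35 and 1.77 from 168 h on. The 1 h array was its lowest and the only 1 of the 12 below the median gene. The late window was 0.56 above that of 24 to 72 h (95% interval -0.54 to 1.67, limma adjusted p = 0.635), and 0.87 after quantile normalization, 0.36 without the 168 h array or 0.90 without the 240 h array.

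ALD2 varied least over the 12 arrays. Its lowest level was -0.82 at 120 h, its median 0.07 and its highest 0.74 at 240 h, a range of 1.56 log2 units that only 20.4% of genes fell short of or matched. Its window means were 0.17 ± 0.30, 0.19 ± 0.39, -0.24 ± 0.54 and 0.29 ± 0.48. The late window differed from 24 to 72 h by 0.10 (95% interval -0.78 to 0.98, limma adjusted p = 0.940; 0.36 after quantile normalization), an interval that leaves room for changes of nearly 1 log2 unit either way. The ALD2 and ALD3 levels over the 12 arrays had a Pearson correlation of -0.49, and of -0.29 after quantile normalization.

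In the first hour, with 1 array at each time and no replicate, ALD6 and ALD3 moved furthest and in opposite directions. ALD6 was 2.25 log2 units (4.76-fold) higher at 1 h than at 0 h and ALD3 2.02 units (4.05-fold) lower, a signed difference of -2.02. After quantile normalization the ALD3 difference was -2.20, while that of ALD6 shrank to 0.86. ACS2 differed by 1.44 and by 0.06 after quantile normalization, so the size of its first-hour difference depended on the scaling. ALD4 differed by 0.16 (-0.59 after quantile normalization), ALD5 by -0.09 (0.05) and ALD2 by 0.43 (0.32), so the signs of ALD4 and ALD5 turned with the scaling. Over all genes the same difference had a median of 0.05 and a central 95% from -2.28 to 3.83, and all 6 lay inside it.

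Set against the whole array, 0 of the 6 genes passed in any of the fits, in which few genes passed at all. From 0 and 1 h to 24 to 72 h, limma called 0 of 6051 tested genes (0%), while an unadjusted p under 0.05 was reached by 97 upward and 74 downward, and 1 of the 6 members, ACS2, had an unadjusted p under 0.05. Between 24 to 72 h and 168 to 264 h, 0.0826% of genes were called, and 2 of the 6, ACS2 and ALD6, had an unadjusted p under 0.05. At that unadjusted level stood 374 of the 6051 genes with a higher and 525 with a lower late mean. The arrays did not overlap, with the late window lower, for these 2 genes, against 7.36% of all genes, and with the late window higher for 0 of the 6, against 5.19%. From the early window to 24 to 72 h they did not overlap upward for ACS2, against 6.59% of genes, and downward for ALD4 in median-centred values only, against 7.11%. The 6 members were chosen as a pathway with earlier results of these arrays known, so these shares describe them and test nothing.

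**Figure D2:**
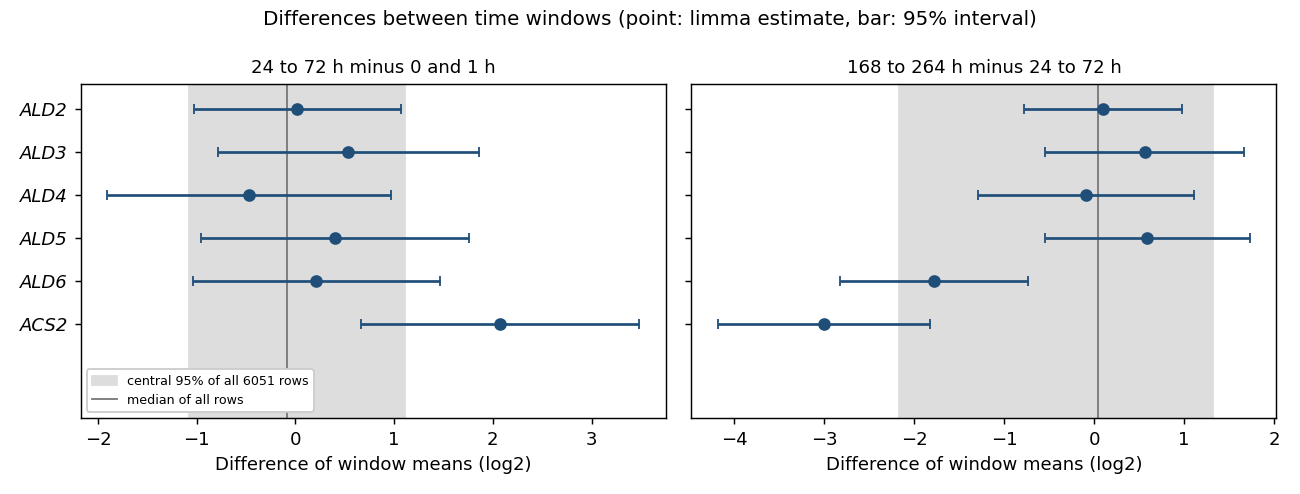
Difference of window means for each of the 6 genes (x axis, log2) from 0 and 1 h to 24 to 72 h on the left and from 24 to 72 h to 168 to 264 h on the right. Points are limma estimates with 95% intervals, the grey band is the central 95% of all 6051 tested rows and the grey line their median. On the right only the ACS2 estimate, -3.00, lies outside the grey band, which begins at -2.17.

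A straight line in hours over all 12 arrays gave slopes of -0.24 log2 units per 24 h for ACS2 (SE 0.08, limma adjusted p = 0.109) and -0.20 for ALD6 (SE 0.05, adjusted p = 0.0706). ALD3 and ALD5 sloped the other way, by 0.10 (SE 0.05, adjusted p = 0.344) and 0.11 (SE 0.05, adjusted p = 0.259). ALD4 had -0.06 and ALD2 0.01. Of all genes 0.0496% were called in this fit and 0 of the 6, of which 3 had an unadjusted p under 0.05, as had 399 genes with a positive and 726 with a negative slope among all 6051. Both negative slopes passed without the 0 h array, at -0.33 for ACS2 (adjusted p = 0.00186) and -0.25 for ALD6 (adjusted p = 0.00083). A spline with 3 degrees of freedom called 0.0331% of genes and 0 of the 6, of which 2 had an unadjusted p under 0.05, as had 975 of all 6051 genes. The lowest adjusted p of the 6 was that of ACS2, 0.139 in limma's F test, and it passed after quantile normalization (adjusted p = 0.0165).

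The log2 ratio of 2 genes within 1 array is free of a shift of all that array's log2 levels, but not of its spread. It can be compared between times, but its sign says nothing, since the probes differ. For ALD6 over ALD4, the cytosolic over the mitochondrial enzyme gene, the ratio was -0.37 at 0 h and between 0.63 and 1.73 on the 6 arrays from 1 to 120 h. It was -0.54 at 144 h, -1.10 at 168 h, -1.16 at 192 h, 1.19 at 240 h and -0.25 at 264 h. So the signal of ALD6 relative to ALD4 stood lower from 144 h on, except on the 240 h array, where ALD4 was at its lowest. The mean was -0.33 ± 1.09 (n = 4) at 168 to 264 h and 0.85 ± 0.88 (n = 8) before. The difference of -1.18 did not pass (exact permutation test over arrays, two-sided, p = 0.0848, adjusted over 3 ratios 0.255). Without the 240 h array it was -1.69 (exact permutation p = 0.0364, not adjusted over the 3 ratios).

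For ALD6 over ACS2 the ratio was -0.51 and 0.30 at 0 and 1 h, between -2.20 and -1.74 on the 5 arrays from 24 to 120 h, and between -1.25 and 0.23 from 144 h on. The 24 to 120 h arrays thus lay below all others. Late and earlier arrays differed by 0.64 (exact permutation p = 0.226, adjusted 0.339). ALD4 over ALD5 was between 0.17 and 1.83 on 9 of 12 arrays and stood at -1.55, -1.32 and -1.46 at 96, 240 and 264 h. Its late and earlier arrays differed by -0.68 (exact permutation p = 0.404, adjusted 0.404). The smallest p that these 495 splits allow is 0.00404. Successive samples of a fermentation are not independent, which the permutation does not allow for.

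**Figure D3:**
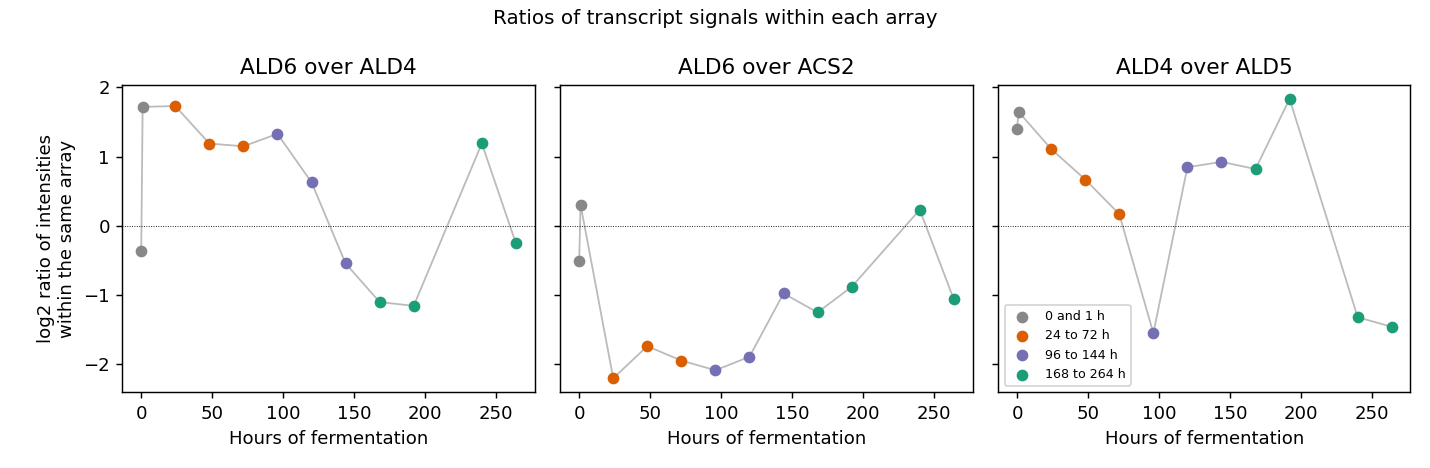
Log2 ratio of the intensities of a pair of genes within the same array (y axis) at the 12 times (x axis, hours), coloured by window. ALD6 over ALD4 drops from 0.63 at 120 h to -0.54 at 144 h and is at 1.19 on the 240 h array, and ALD6 over ACS2 is at or below -1.74 from 24 to 120 h.

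The genes whose 12 levels were most like those of each member were ranked by Pearson correlation among 5481 other named genes measured on all arrays, as a description with no test. For ACS2 they were ERG13 (r = 0.98) and HMG1 (0.97), which encode enzymes of the sterol pathway that starts from acetyl-CoA, and SAM1 (0.96), an S-adenosylmethionine synthetase gene. After quantile normalization these were 0.96, 0.97 and 0.95. For ALD6 they were YEF3 (0.96), a translation elongation factor gene, and the paralogous ribosomal protein genes RPL4B (0.96) and RPL4A (0.96), with 0.89, 0.90 and 0.91 after quantile normalization. For ALD3 they were IZH2 (0.95), RNA14 (0.94) and SDH4 (0.93), and for ALD4 RPT6 (0.97), IXR1 (0.93) and RDL1 (0.93). Of these, RNA14 had 0.76 and IXR1 0.73 after quantile normalization. For ALD5 they were PCL6 (0.94), YGL114W (0.93) and YFL051C (0.92), and for ALD2 YIP1 (0.92), DOA1 (0.90) and PMT3 (0.89). All such values share the same 12 arrays and their differing spreads. Of the 15 pairs among the 6 members, only ALD6 and ACS2 went together closely, with r = 0.80 (0.79 after quantile normalization). ALD3 and ALD6 had r = -0.57 (-0.56).

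**Figure D4:**
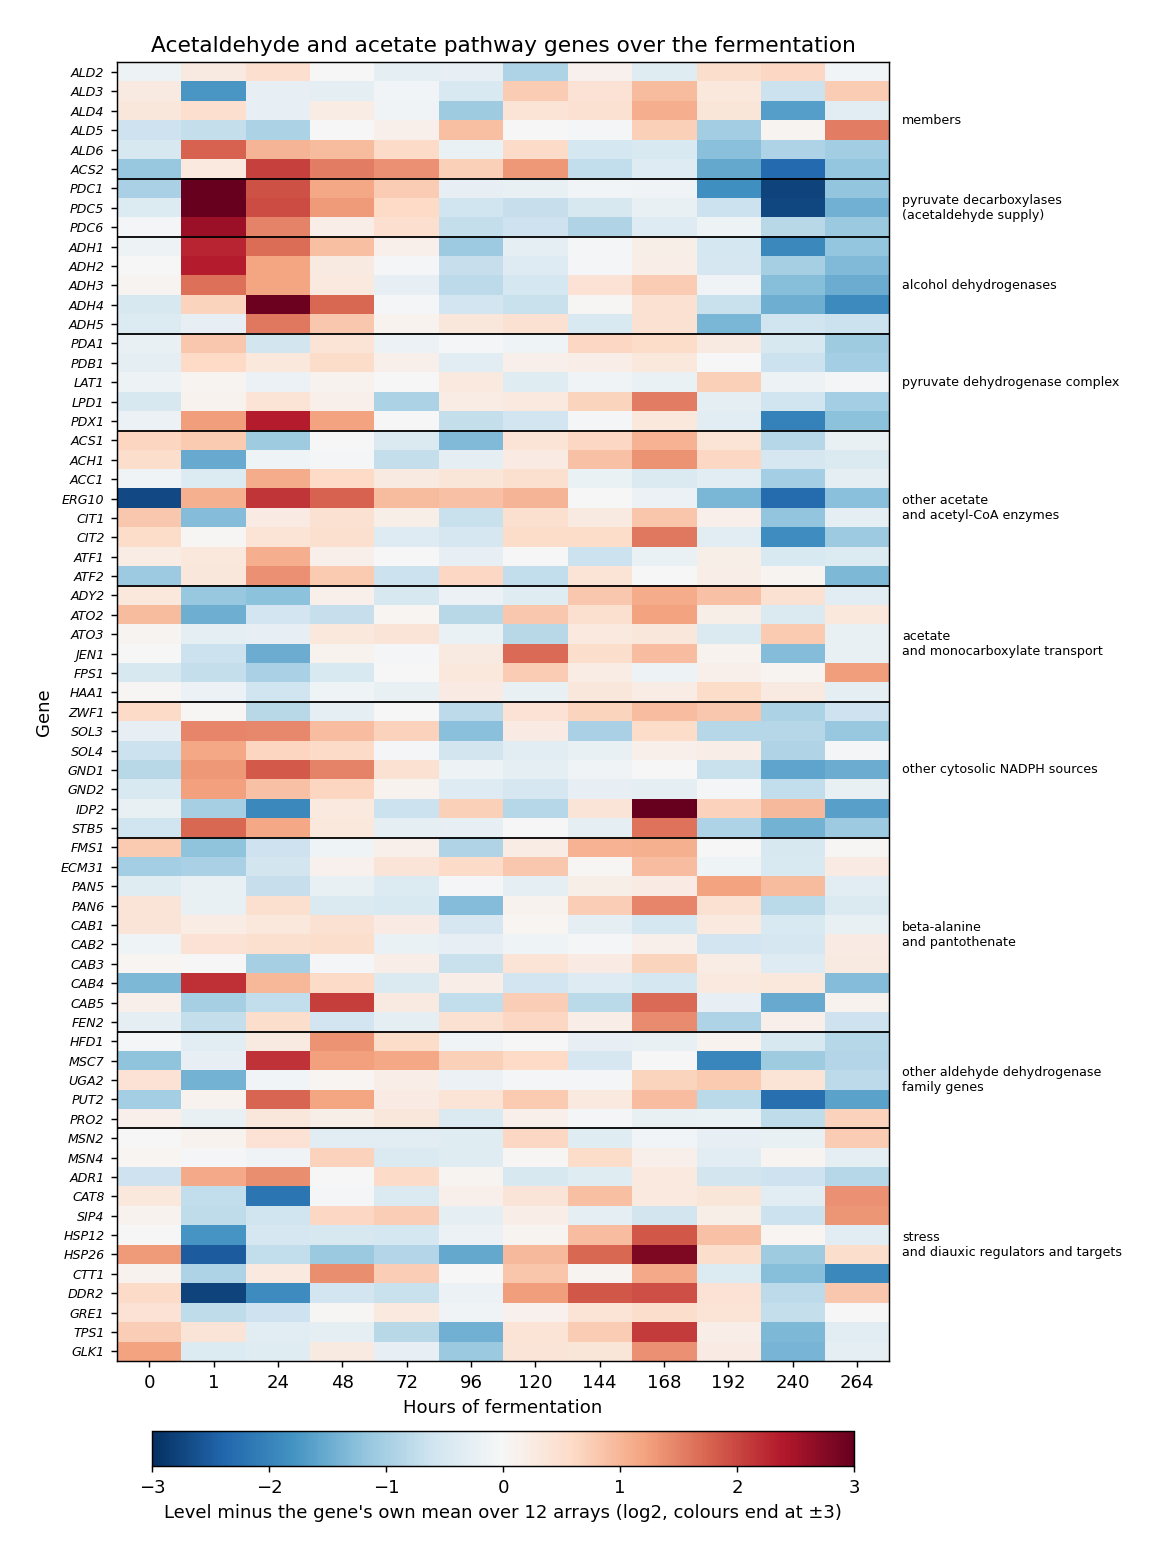
Level of each gene minus its own mean over the 12 arrays (colour, log2, ending at ±3) at each time (x axis, hours), for the 6 members and 61 other genes of 9 lists (y axis). Red cells gather at 1 and 24 h for most decarboxylase and alcohol dehydrogenase genes, and ACS2 shares its red cells from 24 to 120 h with ERG10. The 1 and 24 h arrays had the widest spread across genes (SD 1.56 and 1.48). After quantile normalization the difference of 1 h from 0 h fell from 2.42 to 0.03 for ADH1 and from 4.55 to 2.59 for PDC1.

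The steps on either side of acetaldehyde and acetate were read from 9 lists with 61 genes, all measured. In limma, 0 of the 61 genes passed in either window comparison, in the line or in the spline (lowest adjusted p of the spline 0.175, with 25 of the 61 at an unadjusted p under 0.05, against 975 of all 6051 genes). Most genes named below are the ones with the largest differences in their list, as values that did not pass. Others, among them ADH2, ADH3, IDP2, UGA2, PRO2, HSP12, MSN4 and ATO2, were named outside that rule with the values known. From the early window to 24 to 72 h, the sign of 40 of the 61 differences turned when 1 array was left out or the arrays were quantile normalized, and from there to 168 to 264 h that of 15.

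All 3 pyruvate decarboxylase genes, which encode the enzymes that make acetaldehyde, had late arrays wholly below those of 24 to 72 h, against 7.36% of all genes. For PDC6 this held in median-centred values only. How far the probes tell these 3 related genes apart is not given. The median difference was -2.54, against 0.04 over all genes. PDC1, the main form, differed by -2.76 (limma adjusted p = 0.158) and PDC5 by -2.54 (adjusted p = 0.155). Their early differences, -0.03 for PDC1 and -0.23 for PDC5, ran from -2.30 to 2.24 and from -2.13 to 1.68 with single arrays left out, and PDC6 had -0.55 (-1.85 to 0.75). ALD6 and PDC1 had r = 0.92 over the 12 arrays and 0.79 after quantile normalization, a pair picked after the values were seen.

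All 5 alcohol dehydrogenase genes, whose products compete with aldehyde dehydrogenases for acetaldehyde or make it from ethanol, were lower late (median -1.38). In median-centred values, the late arrays lay wholly below those of 24 to 72 h for 0 of the 5, against 7.36% of all genes. After quantile normalization they did so for ADH1, ADH4 and ADH5, with no share of all genes worked out. How far the probes tell these related genes apart is not given. ADH4 differed by -2.43 and ADH1, the main fermentative form, by -1.78, and by -0.99 after quantile normalization. ADH2 differed by -1.11 and ADH3 by -0.94, and by -0.16 and -0.58 after quantile normalization. From the early window to 24 to 72 h, ADH4 differed by 1.44 (0.74 without the 24 h array) and ADH5 by 1.17. The mitochondrial pyruvate dehydrogenase genes had a median of -0.08, with 3 of 5 below 0. PDX1 differed by -2.01 and PDB1 by -0.68 (-0.45 without 264 h). In the earlier comparison PDX1 had 0.66 (-0.06 without 0 h) and PDA1 -0.41 (0.11 without 1 h).

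Among the other enzymes of acetate and acetyl-CoA, 6 of 8 were lower late (median -0.61). ERG10, the acetoacetyl-CoA thiolase that opens sterol synthesis, differed by 2.44 from the early window to 24 to 72 h (0.55 without 0 h, 4.33 without 1 h). Its late difference from 24 to 72 h was -2.90, and the arrays did not overlap. ACC1, the acetyl-CoA carboxylase of fatty acid synthesis, differed late by -1.17, without overlap. ACS1, the glucose-repressed partner of ACS2, was 1.21 log2 units below its early mean at 24 to 72 h. Its difference of -1.21 was without overlap (-1.47 without 48 h, -0.92 without 24 h). Its levels were 1.42 and 1.55 at 0 and 1 h, -0.30, 0.78 and 0.34 at 24, 48 and 72 h, and -0.56, 1.17 and 1.40 at 96, 120 and 144 h. From 168 h they were 1.82, 1.19, -0.08 and 0.54. ACS1 was thus low on the arrays where ALD4 was low, with r = 0.87 over the 12 arrays, also after quantile normalization, a pair picked after the values were seen. The 2 synthetase genes stood apart at 24 to 72 h, where ACS2 was above its early mean and ACS1 below.

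Of 7 genes for other cytosolic NADPH sources and their regulator STB5, 5 were lower late (median -0.85). GND1, the main 6-phosphogluconate dehydrogenase, differed by -2.20 and SOL3 by -1.59, both without overlap. GND2 differed by -0.86, without overlap in median-centred values only. In those values 3 of the 7 lay wholly lower late, against 7.36% of all genes. ZWF1, the glucose-6-phosphate dehydrogenase that shares with ALD6 the supply of NADPH, went the other way by 0.40 (0.11 without 168 h), and had an early difference of -0.67 (-0.41 without 0 h). IDP2, the cytosolic isocitrate dehydrogenase, also stood higher late, by 1.58 (0.78 without 168 h, 2.39 without 264 h, limma adjusted p = 0.399). The IDP2 probe lay below the 5th percentile of the array at 24 and 264 h. GND1 had an early difference of 1.03, which was -0.04 without 0 h and 2.10 without 1 h.

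For transport of acetate and related acids, 5 of 6 genes were higher late (median 0.61). ADY2, an acetate carrier, led them at 1.04 (0.68 without 24 h). Next was FPS1, a glycerol channel that also lets acetic acid through, at 0.81 (0.50 without 264 h). The largest early differences were small, 0.26 for ATO3 (0.07 without 1 h) and -0.23 for HAA1 (-0.09 without 24 h). HAA1 encodes the regulator of the response to acetic acid. The 10 genes of beta-alanine, pantothenate and coenzyme A synthesis had a late median of 0.14, with 6 above 0. PAN5 differed by 0.96 and CAB4 by -0.68 (-0.35 without 264 h, -1.10 without 72 h, -0.41 after quantile normalization). ECM31 and CAB5 had early differences of 0.98 and 0.94 (CAB5 0.17 without 48 h).

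Most other members of the aldehyde dehydrogenase family had differences with the signs of those of ACS2. From the early window to 24 to 72 h all 5 were above 0 (median 0.91, against -0.08 over all genes). UGA2 had 0.55, which was -0.37 without the 1 h array. The arrays of 4 did not overlap (PRO2 in median-centred values only), against 6.59% of all genes. MSC7, an enzyme of this family with little known function, differed by 2.26, and PUT2, of proline breakdown, by 1.51 (0.95 without 0 h). From there to 168 to 264 h MSC7 differed by -2.50 (limma adjusted p = 0.0880) and PUT2 by -1.99. The correlation of MSC7 with ACS2 was 0.93, and 0.86 after quantile normalization, a pair picked after the values were seen.

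The list of stress and diauxic genes had a late median of 0.14, with 8 of 12 above 0. DDR2 and HSP26, stress-induced genes, stood 1.63 and 1.62 above 24 to 72 h (HSP26 0.91 without 168 h and 2.47 after quantile normalization), and CTT1, the cytosolic catalase, differed early by 1.22 (0.71 without 1 h) and late by -1.43 (-0.99 without 264 h). TPS1, of trehalose synthesis, had an early difference of -1.05. Of the 12 genes of this list, DDR2 (r = 0.89) and HSP26 (r = 0.89) were the closest to ALD3 over the 12 arrays (0.88 and 0.86 after quantile normalization), a pair picked after the values were seen. Other genes of the list were less close, with 0.75 for HSP12 (0.40), 0.25 for CTT1 (-0.04) and 0.07 for MSN4 (-0.23). GRE1 had 0.77 (0.59) and ADR1 -0.54 (-0.66). CAT8, GLK1 and TPS1 had 0.57, 0.60 and 0.45, and rose to 0.77, 0.71 and 0.73 after quantile normalization. Outside this list, ATO2 of the transport genes was closer to ALD3 in median-centred values, with 0.91 (0.75). ALD3, DDR2 and HSP26 were lowest at 1 h, as were 12.7% of all genes. Of the 67 genes described here, 11 were lowest on that array. Whether the likeness of ALD3 to DDR2 and HSP26 extends beyond these 12 samples was not tested.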

How the data were processed

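The deposited values were whole-number probe intensities on a linear scale, 6084 per array. The scanner, background correction and scaling are not given in the sources used here. Of the probes, 5523 had 1 gene symbol in the platform annotation and 561 none. 3 intensities of 0 were treated as missing. The deposited intensities were log2 transformed, probes of the 32 symbols with several were averaged, and the median gene of every array was set to 0. The 6051 rows with values on at least 9 arrays were fitted in limma 3.58.1 (R 4.3.3), two-sided, with Benjamini-Hochberg adjustment over all rows and a threshold of 0.05. Windows pooled neighbouring times, because each time had 1 array, and p-values speak for the spread among these samples, which may come from 1 vessel. All 12 arrays shared 1 residual spread (8 residual and 7.96 prior degrees of freedom). Ratios of 2 genes were tested by exact permutation. The fits were also run on simulated data with independent noise of equal spread on every array. That run cannot speak for successive samples or arrays of unequal spread. The members, lists and tests were chosen with earlier results of these data known. Named by rule were all 6 members, the 2 genes of each list with the largest difference in either window comparison, and the 3 genes most like each member. Some other list genes were named with the values known. Alternatives were other scalings, background correction, filters, time scales and leaving out each array. Precision is limited by the 12 arrays. Figures were drawn with matplotlib 3.10.9.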

Additional observations from a re-analysis of the deposited data

Results flagged for a closer look

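The log2 ratio of ALD4 over ALD5 on the 96 h array, -1.55, stood far from the other 7 arrays taken before 168 h, which lay between 0.17 and 1.65. Chance marks about 1 in 20 groups in this way. On that array ALD4 was at -0.25 and ALD5 at 1.30, and late arrays at 240 and 264 h had similar ratios, -1.32 and -1.46.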

How the results depend on the processing

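No member passed with median centring, all arrays and all tested genes. ACS2 from 24 to 72 h to 168 to 264 h was the single member called (1 of 6) after quantile normalization, with equal median absolute deviations (adjusted p = 0.0482), without the dimmest 25% of genes (0.0475) and with a floor at the 5th percentile (0.0329), and with ALD6 (2 of 6) as deposited without centring. In the spline 1 of 6 was called after quantile normalization and with equal deviations and 5 as deposited, and in the line 2 as deposited. As deposited, the median of all genes itself shifted by 0.99 and -2.06 between the windows. With single arrays left out, members called ran from 0 to 2 in the late comparison, the line and the spline (2 without 0 h) and stayed at 0 in the early one. Over all genes, the late comparison called 5, and 71 after quantile normalization, 2125 as deposited, 62 with equal deviations, 0 with normexp (offset 50) or an intensity trend, 8 with the floor and from 0 to 257 with arrays left out. The line called 3, and 42, 720, 35, 57 with normexp, 0 on log2(hours + 1) or sampling order and from 0 to 753. The spline called 2, and 68, 5091, 53, 4 with normexp, 5 with the floor, 0 with the trend and from 0 to 1113. The early comparison called 0 throughout.

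Directions turned as follows. Early: with arrays left out ALD2 ran from -0.20 (without 0 h; -0.19 without 24 h) to 0.23, ALD3 from -0.47 (without 1 h) to 1.55 and ALD6 from -0.91 (without 0 h) to 1.34, and ALD4 was 0.60 as deposited. Late: as deposited ALD2 -2.01, ALD3 -1.54 and ALD5 -1.51, ALD2 -0.082, -0.02 and -0.05 without 72, 192 and 240 h (up to 0.30 with others left out), ALD4 0.05 and 0.42 without 48 and 240 h (down to -0.50). Slopes per 24 h: as deposited ALD2 -0.16, ALD3 -0.080 and ALD5 -0.063, ALD2 -0.00097 and -0.015 without 192 and 240 h (up to 0.027), ALD4 0.0023 without 240 h, and ALD2 -0.0088 per unit of log2(hours + 1). The cause was not tested, beyond the shift of all genes in the deposited values. ACS2 and ALD6 kept their direction in every late comparison and slope, from -5.10 to -2.39 and from -3.88 to -1.49 in the late one. The ratio of ALD6 over ALD4 differed by -1.69 to -0.91 with arrays left out, with an exact permutation p under 0.05 without 240 h alone, before adjustment over the 3 ratios. Depth over background is unknown. No paired analysis was possible because the labels give no replicate numbers.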

Other observations

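The 168 h array held the highest level of 22 of the 67 genes described here, ALD3 (1.96) and ALD4 (1.92) among them, with HSP26 (5.24), TPS1 (4.38), CIT2 (3.63), HSP12 (3.33), ACH1 (2.66) and IDP2 (2.82). Of all genes 14.9% were highest there. After quantile normalization the count was 8 of 67, against 5.95% of all genes, and ALD3 was then highest at 264 h and ALD4 at 192 h. The 240 h array, the one with the narrowest spread, held the lowest level of 17 of the 67, ACS2, ALD4, PDC1 and ADH1 among them, against 13.2% of all genes, and of 19 after quantile normalization, against 15.4%. JEN1, a lactate and pyruvate carrier, stood at 3.18 at 120 h, its highest, where ALD2 was at its lowest. The 2 genes had r = -0.83 over the 12 arrays (-0.66 after quantile normalization), a pair picked after the values were seen. These counts describe single arrays and were not tested.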
